A study of Macaca mulatta with 24 samples.

Results

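The genes followed here make cholesterol or regulate its synthesis, and they were measured in the ileum of 24 rhesus macaques with and without total-body irradiation (TBI). The set was defined as every probe of the deposited ileum table whose gene symbol is HMGCS1, SQLE, INSIG1, IDI1, FDFT1, LSS, DHCR7 or SREBF2. Of these 8 genes, 4 had a probe under their symbol (HMGCS1, FDFT1, LSS and INSIG1), with 7 probes in all, out of 43603 probes and 16058 gene symbols in the whole table. IDI1 carried only a locus number there, and the RefSeq gene table tied that number to 1 IDI1 probe and a second one to 2 further INSIG1 probes. These 3 probes are given beside the 4 genes and are not counted with them. SQLE, DHCR7 and SREBF2 were not analysed here.

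Cholesterol is built from acetyl-CoA through mevalonate and isoprenoid units to squalene, which is closed to lanosterol and then trimmed to cholesterol. When membranes of the endoplasmic reticulum are low in sterol, the SREBP2 transcription factor (gene SREBF2) is cut free and switches on most genes of this route. When sterol is plentiful, INSIG proteins hold the SREBP escort in place and the genes are expressed less. The small intestine both makes cholesterol and absorbs it from food and bile, and much of its synthesis takes place in epithelial cells.

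The animals were young-adult males, and their ileum was taken as whole tissue from a segment of about 3 cm, so that epithelium, connective tissue, muscle, nerves and immune cells were all in the RNA. The unirradiated group consisted of 4 sham-irradiated animals, labelled day 4, which served as the baseline for every day. After a single dose of 6.7 Gy or 7.4 Gy of cobalt-60 gamma radiation, 4 animals per dose were studied on day 4, 4 on day 7 and 2 on day 12, each with 1 array and without pooling. No strain, genotype or further agent is named for any group. Levels are log2 signals relative to the 75th percentile of the same array, so that 0 is that percentile and a difference of 1 is 2-fold. FABP6, the bile acid binding protein that marks ileal enterocytes, stood at 8.74 ± 0.05 (SD, n = 4) on this scale in unirradiated ileum and was well above background on every array. All 10 sterol gene probes were well above background on all 24 arrays too. Both LSS probes were dim, however, with means of −3.68 and −3.80 over the arrays, against 3.76 for the brighter FDFT1 probe.

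At the higher dose, HMGCS1 and FDFT1 were lower on day 4 than in unirradiated ileum, and IDI1 was lower with them. HMGCS1 fell 2.05-fold, FDFT1 1.90-fold and IDI1 2.21-fold. After 6.7-Gy TBI the same genes lay below the unirradiated level on day 4 without passing the test, and on days 7 and 12 no gene of the set passed. Passing means an adjusted p under 0.05 (limma, Benjamini-Hochberg over all 36108 tested probes), and altered means passing with a change of at least 2-fold.

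HMGCS1 encodes cytosolic HMG-CoA synthase, an early enzyme of the mevalonate route. In the 4 unirradiated animals its level was 4.11, 3.28, 2.98 and 3.81. On day 4 it was 3.30, 2.02, 2.91 and 2.13 after 6.7 Gy and 2.30, 2.42, 2.73 and 2.59 after 7.4 Gy. All 4 animals of the higher dose lay below every unirradiated animal, as they did for 7.91% of all tested probes, whereas at the lower dose animal 1 lay within the unirradiated range. The log2 change was −1.04 ± 0.27 (SE, adjusted p = 0.026) after 7.4 Gy and −0.95 ± 0.27 (adjusted p = 0.057) after 6.7 Gy. A second HMGCS1 probe changed by −1.20 (adjusted p = 0.014) and −0.99 (adjusted p = 0.054). The call for the first probe at 7.4 Gy was lost without unirradiated animal 1 (−0.85, adjusted p = 0.097), without unirradiated animal 4 (−0.95, adjusted p = 0.055) and without 7.4-Gy animal 1 (−0.97, adjusted p = 0.087). At 6.7 Gy a call was gained without unirradiated animal 3 (−1.14, adjusted p = 0.045) or without 6.7-Gy animal 1 (−1.19, adjusted p = 0.023).

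IDI1, the isomerase that balances the 5-carbon isoprenoid units, stood at 0.70, 0.10, −0.44 and 0.10 in unirradiated ileum. Its level was −0.46, −1.14, −0.57 and −0.55 on day 4 after 6.7 Gy and −1.0, −1.38, −0.91 and −0.81 after 7.4 Gy. Neither dose group overlapped the unirradiated animals, although at 6.7 Gy the nearest values were only 0.02 apart. In this direction 7.71% of all tested probes were separated at 6.7 Gy and 7.91% at 7.4 Gy. The change was −1.14 ± 0.22 (SE, adjusted p = 0.0066) after 7.4 Gy and −0.80 ± 0.22 (adjusted p = 0.06) after 6.7 Gy. At 6.7 Gy it passed when unirradiated animal 3 was left out (−0.98, adjusted p = 0.037), and also when either 6.7-Gy animal of day 12, which enters only through the shared spread, was left out (adjusted p = 0.047 each).

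FDFT1 is squalene synthase, the first enzyme committed to sterols. Unirradiated animals had 4.63, 4.03, 3.84 and 3.96. The day 4 values were 3.64, 3.31, 3.70 and 3.57 after 6.7 Gy and 3.23, 2.76, 3.44 and 3.33 after 7.4 Gy. No animal of either dose reached the lowest unirradiated value, a separation that 7.71% of all tested probes had at 6.7 Gy and 7.91% at 7.4 Gy. The change was −0.93 ± 0.17 (SE, adjusted p = 0.0048) after 7.4 Gy and −0.56 ± 0.17 (adjusted p = 0.081) after 6.7 Gy, where it passed with slide as a block (−0.72, adjusted p = 0.045). The other FDFT1 probe changed by −0.80 (adjusted p = 0.0072) and −0.49 (adjusted p = 0.095). No single animal decided the FDFT1 or IDI1 call at 7.4 Gy.

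LSS, lanosterol synthase, closes the ring system of sterols. Its brighter probe read −3.64, −3.61, −3.24 and −3.17 in unirradiated animals. On day 4 it read −3.61, −3.96, −4.00 and −4.19 after 6.7 Gy and −3.80, −3.63, −3.66 and −4.16 after 7.4 Gy. Both dose groups overlapped the unirradiated range by 1 animal. The change was −0.52 ± 0.20 (SE, adjusted p = 0.14) after 6.7 Gy and −0.40 ± 0.20 (adjusted p = 0.25) after 7.4 Gy. The other LSS probe changed by −0.56 (adjusted p = 0.061) and −0.50 (adjusted p = 0.064). With the mean of both probes LSS passed at both doses, at −0.54 (adjusted p = 0.033) after 6.7 Gy and −0.45 (adjusted p = 0.046) after 7.4 Gy, but the 2 LSS probes followed each other poorly over the 24 arrays (Pearson r = 0.237), in contrast to the probes of HMGCS1 (r = 0.943), FDFT1 (r = 0.916) and INSIG1 (r = 0.861 to 0.978).

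INSIG1, the sterol-sensing retention protein, is itself an SREBP target. In unirradiated ileum it stood at 1.80, 1.43, 0.64 and 1.02. After 6.7 Gy the day 4 values were 0.89, 0.05, 0.69 and −0.96, and after 7.4 Gy they were 0.26, 0.30, −0.71 and 0.38. The lower dose overlapped the unirradiated range by 2 animals and the higher dose did not, as for 7.91% of all tested probes. Of the 5 genes, INSIG1 varied most between animals of one group, with a standard error of 0.47 for its changes of −1.05 (adjusted p = 0.19) and −1.17 (adjusted p = 0.14). The 2 probes tied to INSIG1 by the gene table changed by −1.63 and −0.90 after 6.7 Gy and by −1.23 and −1.16 after 7.4 Gy, and none of these passed.

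**Figure D1:**
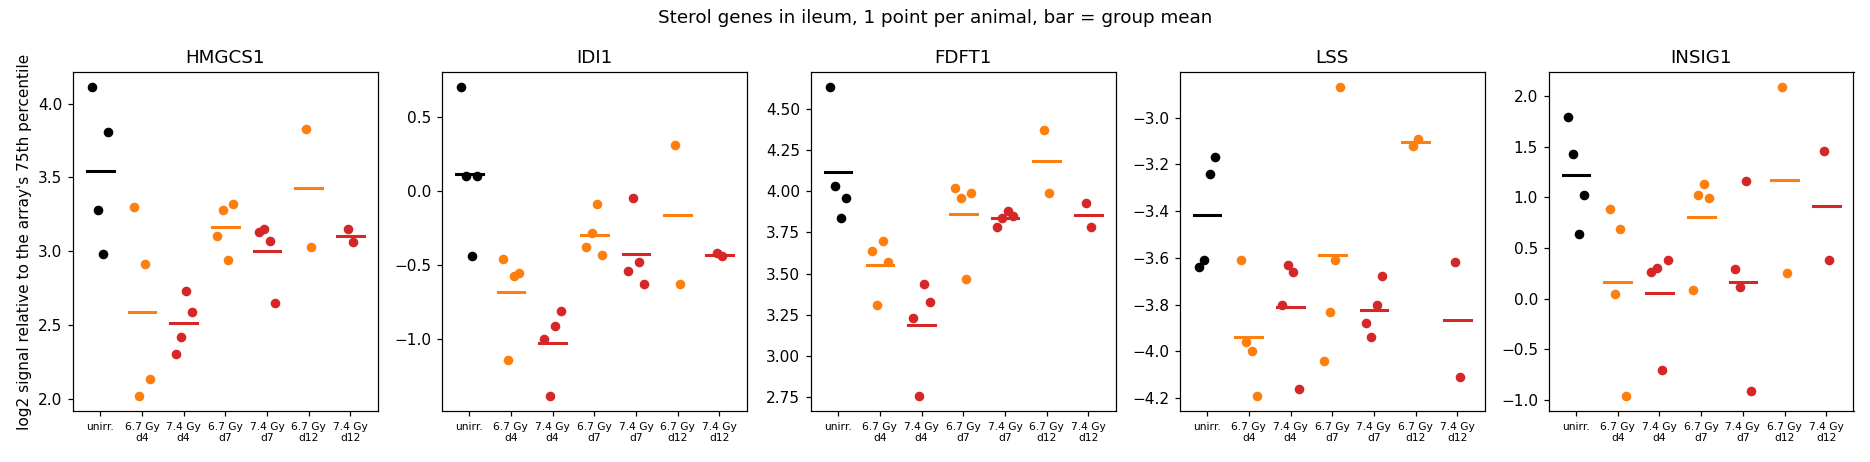
Log2 signal relative to the array's 75th percentile (vertical axes, a separate scale for each gene) in each animal for HMGCS1, IDI1, FDFT1, LSS and INSIG1, by group (unirr. = unirradiated, d = day), with the group mean as a bar. The 4 animals at day 4 after 7.4 Gy lie below all unirradiated animals for HMGCS1, IDI1, FDFT1 and INSIG1 but not for LSS, beside 7.91% of all tested probes.

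Counted over HMGCS1, FDFT1, LSS and INSIG1, 2 of 4 genes passed as lower on day 4 after 7.4 Gy, against 3.1% of all tested probes, and 1 of 4 was altered (HMGCS1), against 0.734%. After 6.7 Gy on day 4, 0 of 4 passed, where 1.23% of all probes passed as lower and 0.382% were altered and lower, while 4 of 4 were lower at an unadjusted p under 0.05, as were 13.7% of all tested probes. The median change over the 4 genes was −0.98 after 7.4 Gy and −0.76 after 6.7 Gy, and over all tested probes it was −0.07 and −0.10. All 10 probes, IDI1 included, had a change below 0 at both doses, between −1.23 and −0.40 at 7.4 Gy, where 5 of 10 passed, and between −1.63 and −0.49 at 6.7 Gy, where 0 passed and 9 had an unadjusted p under 0.05, to be read against the same 13.7%. Both day 4 groups were set against the same 4 unirradiated animals, so their changes are not independent of each other. By the methods' t-test with Benjamini-Hochberg adjustment, 0 of 4 genes passed on day 4 after 7.4 Gy (FDFT1 adjusted p = 0.12, HMGCS1 adjusted p = 0.13), nor did IDI1 (adjusted p = 0.11), and limma fitted on only the 2 groups compared also gave 0 of 4 (FDFT1 adjusted p = 0.062, HMGCS1 adjusted p = 0.066).

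The arrays were printed 4 to a slide, and 4 irradiated day 4 arrays shared a slide with an unirradiated one. On each of these 4 slides every one of the 5 genes was lower in the irradiated animal, where 17.7% of all tested probes were lower on all 4. One of these slides held unirradiated animal 1, which stood apart from the other 3, and on the other 3 slides alone the share of all probes was 22.6%. The difference for HMGCS1 was −1.20 and −1.14 for the 2 animals given 6.7 Gy and −0.68 and −1.39 for the 2 given 7.4 Gy. For FDFT1 it was −0.93 and −0.45, then −0.62 and −1.20. For INSIG1 it ranged more widely, from −2.39 to −0.38. All unirradiated arrays lay at the first position of a slide and all 7.4-Gy day 4 arrays at the second. With position as a covariate, estimated through the 6.7-Gy day 4 arrays that lie at both, FDFT1 changed by −1.08 (adjusted p = 0.11), HMGCS1 by −0.90 (adjusted p = 0.38) and IDI1 by −1.38 (adjusted p = 0.11) at 7.4 Gy. The remaining groups lay at the other two positions, so that in the comparisons of days 7 and 12 with unirradiated or day 4 arrays the group and the position cannot be told apart. Between day 12 and day 7 position could be fitted, through the 7.4-Gy day 7 arrays that lie at both, and the median difference over the 4 genes was then 0.26, against 0.20 without it.

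Part of a list of epithelial markers was lower on day 4 as well. Of 7 tested genes on this pan-epithelial list, 3 passed as lower after 7.4 Gy (median −0.61) and 1 after 6.7 Gy (median −0.57), beside 3.1% and 1.23% of all tested probes. KRT18, a keratin of simple epithelia, had the opposite sign, at 0.55 (adjusted p = 0.26) and 0.47 (adjusted p = 0.33). The summed level of the 7 genes was 8.36 to 8.90 in unirradiated animals, 7.86 to 8.42 at 6.7 Gy on day 4 and 7.81 to 8.20 at 7.4 Gy. Of 8 enterocyte genes, 2 passed as lower at each dose, while 1 lay above 0 after 6.7 Gy (2.02) and 2 after 7.4 Gy (up to 0.90). Of 5 goblet cell genes, 1 passed as lower at each dose, and 1 lay above 0 after 7.4 Gy (0.29). Of 5 B cell genes, 2 passed as lower after 6.7 Gy (CD79A and CD79B) and 1 after 7.4 Gy (CD79B). MS4A1, on the same list, was above background on all arrays of the unirradiated group only, so that it was tested only through the group where it was high, and it did not pass. None passed at either dose on the lists for crypt proliferation, plasma cells, T cells, smooth muscle and adipocytes. In the opposite direction, 3 of 6 fibroblast genes, 2 of 6 genes of enteric glia and neurons, 2 of 5 endothelial genes and 1 of 4 macrophage genes passed as higher after 7.4 Gy, where 3.55% of all probes did. In bulk tissue, fewer cells of a type and less RNA per cell cannot be told apart.

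When each array was scaled to the mean of the 7 epithelial markers instead of its 75th percentile, an alternative added after the marker values were seen, the median over all tested probes itself moved to 0.38 at 7.4 Gy. On this scale HMGCS1 changed by −0.59 (adjusted p = 0.071), FDFT1 by −0.48 (adjusted p = 0.065), IDI1 by −0.70 (adjusted p = 0.032) and INSIG1 by −0.72 (adjusted p = 0.23) after 7.4 Gy, and LSS turned to 0.05 (adjusted p = 0.91). After 6.7 Gy the 5 genes changed by −0.65 to −0.12 and none passed. Relative to epithelial markers, 4 of the 5 genes had a negative value after 7.4 Gy, and IDI1 alone passed. The mean of the 7 markers includes KRT18, whose change had the opposite sign. The part of epithelial loss in these values was not tested.

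**Figure D2:**
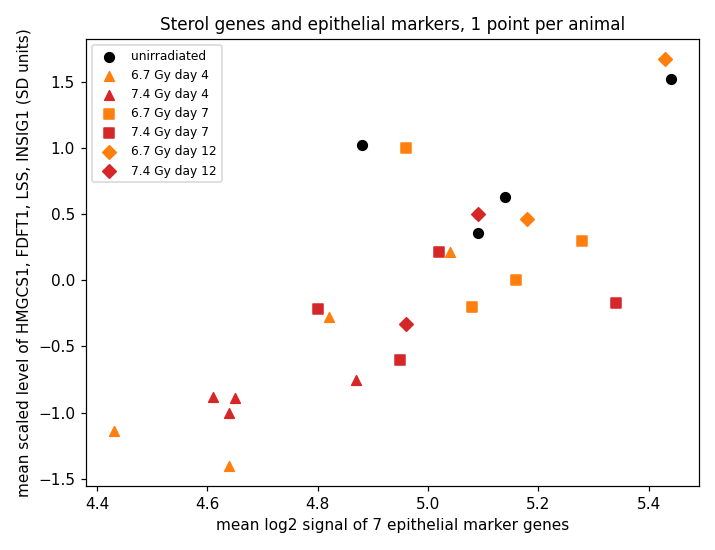
Mean level of HMGCS1, FDFT1, LSS and INSIG1, each centred and scaled over the 24 arrays (vertical axis, SD units), against the mean log2 signal of 7 epithelial marker genes (horizontal axis), 1 point per animal. The 7.4-Gy day 4 animals lie at −1.0 to −0.75 with epithelial means of 4.61 to 4.87, and the unirradiated animals lie at 0.36 to 1.52 with epithelial means of 4.88 to 5.44.

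Unirradiated animal 1 stood apart from the other 3. It had the highest level of HMGCS1, IDI1, FDFT1 and INSIG1 in its group and the highest epithelial sum, and the summed level of its 4 smooth muscle genes was 6.80, against 9.0 to 9.19 in the other unirradiated animals. Without it, 1 of 4 genes passed on day 4 after 7.4 Gy in place of 2, and none was altered. The part of tissue composition in the day 4 differences was not tested further.

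Between day 4 and day 7, FDFT1 after 7.4 Gy was the only one of the 4 genes to pass as higher, and the remaining differences, at either dose, ran from −0.01 (LSS after 7.4 Gy) to 0.63 (INSIG1 after 6.7 Gy) without passing. A further INSIG1 probe was at 1.02 after 6.7 Gy (adjusted p = 0.30). On day 7, HMGCS1 was 3.10, 3.28, 2.94 and 3.32 after 6.7 Gy and 3.13, 3.15, 3.07 and 2.65 after 7.4 Gy, which overlapped the unirradiated animals in both groups. FDFT1 was 4.02, 3.96, 3.47 and 3.99 after 6.7 Gy and 3.78, 3.84, 3.88 and 3.85 after 7.4 Gy. The spread of FDFT1 at 7.4 Gy was small (SD 0.04, n = 4), and 3 of these animals lay within the unirradiated range. IDI1 was −0.38, −0.28, −0.09 and −0.43 after 6.7 Gy and −0.54, −0.05, −0.48 and −0.63 after 7.4 Gy, with 3 of 4 animals of the higher dose below every unirradiated animal. INSIG1 was 0.08, 1.02, 1.13 and 0.99 after 6.7 Gy and 0.29, 0.11, 1.16 and −0.91 after 7.4 Gy, and LSS was −4.04, −3.83, −3.61 and −2.87, then −3.88, −3.94, −3.80 and −3.68. Animals below the lowest unirradiated one were found for both genes at both doses. The group mean of INSIG1 after 7.4 Gy was 0.16 ± 0.85 (SD, n = 4) on day 7, near its day 4 mean of 0.06 ± 0.51.

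None of the 4 genes passed against unirradiated ileum on day 7, where 0.354% of all probes passed as lower after 6.7 Gy and 0.72% after 7.4 Gy. Their median change was −0.32 after 6.7 Gy and −0.48 after 7.4 Gy, against 0.00 and −0.03 over all probes. After 7.4 Gy INSIG1 had the value farthest from 0 among the 4 genes, at −1.06 (95% interval −2.05 to −0.07, unadjusted p = 0.036, adjusted p = 0.34), with its other probes at −1.12 (adjusted p = 0.37) and −0.98 (adjusted p = 0.47). IDI1 was at −0.54 (95% interval −1.01 to −0.07, adjusted p = 0.30), the second HMGCS1 probe at −0.71 (adjusted p = 0.25) and the second LSS probe at −0.40 (adjusted p = 0.27). For HMGCS1 after 7.4 Gy the interval was −1.10 to 0.01, so that a fall as large as that of day 4 was not shut out by these data.

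Compared directly, FDFT1 was higher on day 7 than on day 4 after 7.4 Gy, by 0.65 ± 0.17 (SE, adjusted p = 0.042), all 4 animals of day 7 lying above all 4 of day 4, as for 6.55% of all probes. This was 1 of 4 genes, where 2.32% of all probes passed as higher. The second FDFT1 probe did not pass (0.48, adjusted p = 0.099). With slide as a block the first probe did not pass either (0.46, adjusted p = 0.15), nor did it on the epithelial scale (0.32, adjusted p = 0.26). In the same comparison 2 of 7 epithelial markers passed as higher, and 2 of 5 endothelial genes passed as lower, where 1.48% of all probes did, and the part of these in the FDFT1 difference was not tested. The values of IDI1 (0.60, adjusted p = 0.15), HMGCS1 (0.49, adjusted p = 0.33) and INSIG1 (0.10, adjusted p = 0.93) did not pass. The FDFT1 call was lost without any 1 of the 4 day 7 animals (0.64 to 0.67), without day 4 animal 1, 2 or 4 (0.66, 0.51 and 0.70), and even without unirradiated animal 2 or 6.7-Gy day 7 animal 2, which alter only the shared spread. After 6.7 Gy, 0 of 4 genes passed between these days, where 0.717% of probes did, and the values of HMGCS1 and FDFT1 were 0.57 (adjusted p = 0.25) and 0.31 (adjusted p = 0.34).

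On day 12, with 2 animals per dose, HMGCS1 was 3.83 and 3.03 after 6.7 Gy and 3.15 and 3.06 after 7.4 Gy. FDFT1 was 4.37 and 3.99, then 3.93 and 3.78, and INSIG1 was 2.09 and 0.25, then 1.46 and 0.38. IDI1 was 0.31 and −0.63, then −0.42 and −0.44, and LSS was −3.12 and −3.09, then −3.62 and −4.11. An animal below the lowest unirradiated one was found for INSIG1 after either dose, for IDI1 after 6.7 Gy (−0.63 against −0.44, with 1 animal after 7.4 Gy level with it at 2 decimals), and for FDFT1 and LSS after 7.4 Gy (LSS −4.11 against −3.64), but not for HMGCS1. No gene of the set passed against unirradiated ileum, where 0.105% of probes passed as lower after 6.7 Gy and 0.0305% after 7.4 Gy, and the median change over the 4 genes was 0.00 and −0.37. With both doses averaged, day 12 exceeded day 4 by 0.64 ± 0.15 (SE, adjusted p = 0.0084) for FDFT1 and by 0.72 ± 0.23 (adjusted p = 0.038) for HMGCS1, which was 2 of 4 genes against 10.7% of all probes passing as higher. The second FDFT1 probe passed too (0.62, adjusted p = 0.0066), and the second HMGCS1 probe did not (0.62, adjusted p = 0.069). IDI1 just missed, at 0.56 (adjusted p = 0.052). Neither call held without 6.7-Gy animal 1 of day 12 (FDFT1 0.55, adjusted p = 0.056 and HMGCS1 0.52, adjusted p = 0.20) or without 7.4-Gy animal 1 of day 12 (FDFT1 0.60, adjusted p = 0.051 and HMGCS1 0.69, adjusted p = 0.13). The HMGCS1 call was also lost without 7.4-Gy animal 2 of day 12 (adjusted p = 0.073), without 6.7-Gy day 4 animal 2 or 4 (adjusted p = 0.061 each) and without 7.4-Gy day 4 animal 1 (adjusted p = 0.065). Epithelial markers ran the same way, 4 of 7 passing as higher on day 12 than on day 4. As lower, 4 of 6 fibroblast genes, 2 of 5 endothelial genes and 2 of 4 macrophage genes passed, where 6.8% of all probes did. On the epithelial scale the differences were 0.19 for FDFT1 (adjusted p = 0.37) and 0.26 for HMGCS1 (adjusted p = 0.32). Between day 12 and day 7, 0 of 4 genes passed, against 0.161% of probes.

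**Figure D3:**
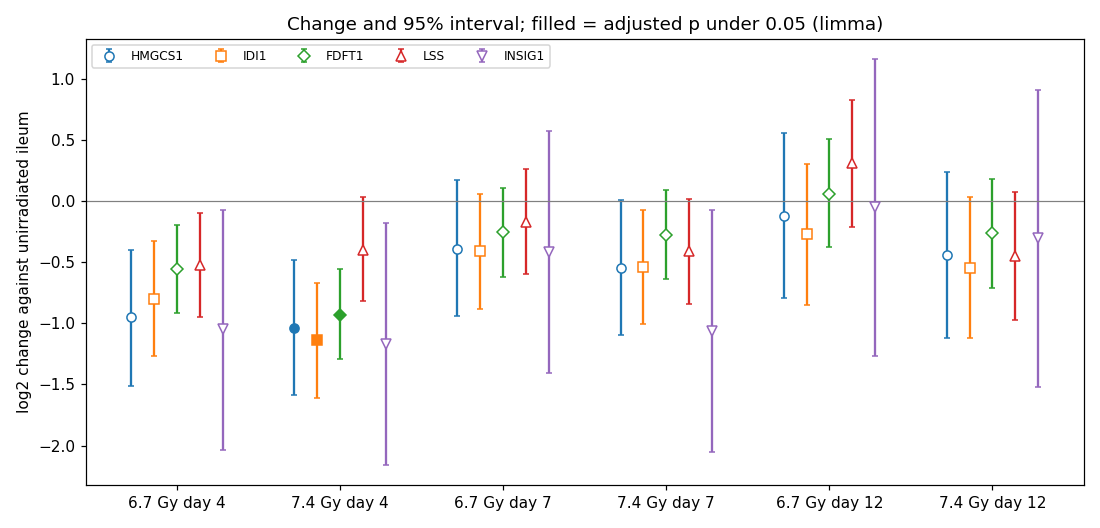
Log2 change against unirradiated ileum (vertical axis) with its 95% interval for 5 genes in the 6 irradiated groups (horizontal axis), all set against the same 4 unirradiated animals. The filled symbols, HMGCS1, IDI1 and FDFT1 on day 4 after 7.4 Gy, mark an adjusted p under 0.05.

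No gene of the set passed between the doses on any day, and 0%, 0% and 0.00277% of all tested probes did on days 4, 7 and 12. With each gene represented by 1 probe, the values with the largest size on day 4 were those of FDFT1, 0.37 lower at 7.4 Gy on the log2 scale (interval −0.73 to 0.00, adjusted p = 0.88), and IDI1 (−0.34, interval −0.81 to 0.13, adjusted p = 0.88). A further INSIG1 probe went the other way, at 0.40 (interval −0.71 to 1.51, adjusted p = 0.91). The HMGCS1 difference of −0.08 had an interval of −0.64 to 0.47. On day 12 LSS was at −0.76 (interval −1.36 to −0.16, unadjusted p = 0.016, adjusted p = 0.77) with 2 animals per dose, and its other probe was at −0.03 (adjusted p = 0.99). Dose differences within these intervals were not resolved with these numbers of animals. That HMGCS1, IDI1 and FDFT1 passed at 7.4 Gy and not at 6.7 Gy does not show that the doses differed.

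Within each gene, the order of the group means could be read only in part. For HMGCS1 the means ran from 3.54 ± 0.51 (SD, n = 4) in unirradiated ileum over 3.43 ± 0.56 (n = 2) on day 12 after 6.7 Gy, 3.16 ± 0.17, 3.10 ± 0.06 (n = 2) and 3.00 ± 0.24 to the day 4 groups at 2.59 ± 0.62 and 2.51 ± 0.19. For FDFT1, day 12 after 6.7 Gy came first at 4.18 ± 0.27 (n = 2) and unirradiated ileum next at 4.11 ± 0.35, and the day 4 groups were again last at 3.56 ± 0.17 and 3.19 ± 0.30. Neighbours in these orders differed by less than their spread except, for FDFT1, at the step from the lowest day 7 mean (3.84 ± 0.04) to the 6.7-Gy day 4 mean, which was not tested, and at the step between the doses on day 4, which did not pass the test of the doses given above.

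Other enzymes of the route were taken as a list of 14 genes, of which 12 had a tested probe. On day 4 after 7.4 Gy, 2 of the 12 passed as lower, and all 12 had a value below 0 (median −0.41), where 3.1% of all probes passed as lower and the median of all probes was −0.07. SC4MOL, the methyl sterol oxidase now called MSMO1, changed by −1.29 (adjusted p = 0.017), from a range of −0.17 to 0.84 in unirradiated animals to −1.39 to −0.43, with no overlap. EBP, the sterol isomerase that follows the demethylation steps, changed by −0.90 (adjusted p = 0.011), from 2.94 to 3.36 down to 2.09 to 2.29. Groups separated in this direction at that dose were found for 7.91% of all tested probes. With array position as a covariate, SC4MOL (−1.33, adjusted p = 0.24) and EBP (−0.64, adjusted p = 0.37) did not pass, and with the methods' t-test SC4MOL did not (−1.29, adjusted p = 0.11). On the epithelial scale SC4MOL kept its call (−0.84, adjusted p = 0.046), and EBP did not (−0.45, adjusted p = 0.086). The SC4MOL call was lost without unirradiated animal 1 (−1.14, adjusted p = 0.063) or without 7.4-Gy animal 1 (−1.24, adjusted p = 0.058). After 6.7 Gy 0 of 12 passed, with 11 values below 0 (median −0.27, against −0.10 over all probes), SC4MOL at −1.10 (adjusted p = 0.056) and EBP at −0.56 (adjusted p = 0.11). At later times none passed against unirradiated ileum.

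Genes of sterol sensing and SREBP control were not called against unirradiated ileum. Of 5 tested genes on this list, 0 passed on any day, and the medians on day 4 were −0.11 after 6.7 Gy and −0.24 after 7.4 Gy, against −0.10 and −0.07 over all probes. SREBF1, which encodes the SREBP1 factors that favour fatty acid genes, had values of −0.28 (adjusted p = 0.40) and −0.35 (adjusted p = 0.31). INSIG2, the relative of INSIG1, was at −0.12 (adjusted p = 0.79) and −0.44 (adjusted p = 0.32).

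Uptake genes did not move in one direction. Of 9 tested genes of cholesterol uptake and trafficking, 1 passed as lower and 1 as higher on day 4 after 7.4 Gy, where 3.1% and 3.55% of all probes did, and 0 passed after 6.7 Gy. The list's median change was 0.31 after 7.4 Gy and 0.14 after 6.7 Gy. STARD4, a carrier that moves sterol between membranes and is an SREBP target, changed by −1.28 after 7.4 Gy (adjusted p = 0.0077). It went from −0.98 to −0.24 in unirradiated animals to −2.21 to −1.45 without overlap, a separation that 7.91% of all tested probes had. On day 12 it exceeded its day 4 level by 0.97 (adjusted p = 0.0074, lost without either animal 1 of day 12, at 0.80 and 0.83). This was 1 of 9 genes, beside 10.7% of all probes passing as higher. The STARD4 call of day 4 held on the epithelial scale (−0.83, adjusted p = 0.013) and was lost with position as a covariate (−0.79, adjusted p = 0.42) and with the methods' t-test (adjusted p = 0.069). NPC1L1, the sterol transporter of the enterocyte brush border, was at 0.41 (adjusted p = 0.37) after 7.4 Gy and 0.19 (adjusted p = 0.69) after 6.7 Gy. VLDLR, the receptor for VLDL, was at 1.40 with an adjusted p of 0.05 by rounding, on unirradiated values that ran from −4.13 to −1.22, and at 0.81 (adjusted p = 0.14) without unirradiated animal 1. That VLDLR call was also lost when any of 19 other animals was left out, at an adjusted p of 0.052 to 0.12. It did not hold with slide as a block (1.40, adjusted p = 0.10) or with the methods' t-test (1.40, adjusted p = 0.27). On the epithelial scale the VLDLR value was 1.84.

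Efflux and fatty acid genes gave few calls. Of 6 tested genes of the LXR and efflux list, none passed against unirradiated ileum. NR1H3, the sterol-activated receptor LXR alpha, was higher on day 12 than on day 4 by 0.74 (adjusted p = 0.0029), where 10.7% of all probes passed as higher. It stood at 3.04 to 3.24 in the 4 animals of day 12 against 1.91 to 2.57 in the 8 of day 4, a separation that 5.04% of all probes had. Of 9 tested fatty acid genes, 1 passed as lower on day 4 after 7.4 Gy, beside 3.1% of all probes. This was ACSS2, which makes acetyl-CoA from acetate (−0.52, adjusted p = 0.043), and FASN, fatty acid synthase, was at −0.03 (adjusted p = 0.94). GPAM, which starts glycerolipid synthesis, was lower on day 12 than on day 4 (−0.49, adjusted p = 0.031), as were 6.8% of all probes. The ACSS2 call was lost without any of 14 single animals (adjusted p up to 0.11), with slide as a block (adjusted p = 0.10) and with the methods' t-test (adjusted p = 0.13). The GPAM call was lost with slide as a block (−0.45, adjusted p = 0.061) and without 7.4-Gy day 4 animal 3 or any of 3 animals of day 12 (adjusted p up to 0.15). On the epithelial scale, NR1H3 had 0.29 (adjusted p = 0.17) and ACSS2 −0.08 (adjusted p = 0.82), while GPAM was farther from 0, at −0.94. The median change of the fatty acid list on day 4 was −0.23 after 7.4 Gy and −0.08 after 6.7 Gy, against −0.07 and −0.10 over all probes.

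**Figure D4:**
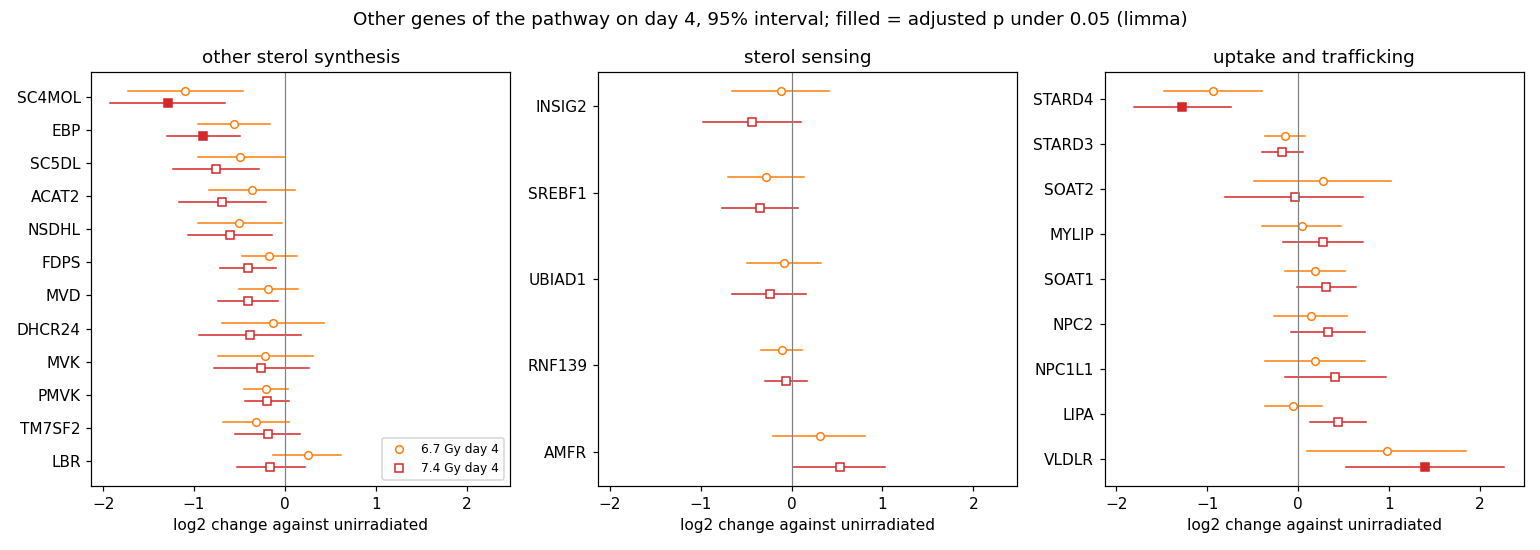
Log2 change on day 4 after the lower dose (circles) and the higher dose (squares) against unirradiated ileum (horizontal axis) with its 95% interval, for 12 other sterol synthesis genes, 5 sterol-sensing genes and 9 uptake and trafficking genes, ordered by the 7.4-Gy value. Filled symbols (adjusted p under 0.05) are SC4MOL, EBP and STARD4 on the lower side and VLDLR on the higher side.

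Over the 24 arrays the sterol genes varied together to unequal degrees. Pearson's r was 0.857 between HMGCS1 and IDI1, 0.856 between FDFT1 and IDI1, 0.818 between FDFT1 and HMGCS1, 0.735 between HMGCS1 and INSIG1, 0.639 between IDI1 and INSIG1, and 0.518 between FDFT1 and INSIG1. After the group means had been removed, these were 0.700, 0.649, 0.622, 0.600, 0.451 and 0.21, in the same order. LSS had r of 0.283 to 0.491 with the other genes and −0.271 to 0.139 within groups. The arrays share their scaling and the composition of each tissue piece, and these coefficients are descriptions without a test.

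The genes whose pattern was most like the mean scaled profile of HMGCS1, FDFT1, LSS and INSIG1 were sought among 14088 other symbols by Pearson's r over the 24 arrays. The first 10 were CDK2AP2 (r = 0.865), FGFBP1, SYNJ2BP, EPCAM, TMOD4, SC4MOL, SNORC, KRT31, PPFIA3 and LOC715752 (r = 0.806). EPCAM, the epithelial adhesion molecule, stood at rank 4 with r = 0.851, and SC4MOL at rank 6 with r = 0.832. Further sterol genes followed at rank 14 (SC5DL, r = 0.801), rank 18 (EBP, r = 0.792) and rank 39 (STARD4, r = 0.773).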

How the data were processed

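Ileum RNA of each of 24 animals was measured on its own Agilent Cy3 macaque array. The authors scanned the arrays and obtained a processed intensity per spot, with background subtracted by Feature Extraction 11.0.1.1 as its headers state. The deposited log2 values are the authors' signals minus the 75th percentile of each array, centred per probe, and were used for gene symbols and as an alternative. Values were computed again from the intensities (log2, spots of a probe averaged, minus the array's 75th percentile, which ran from 837.3 to 1330). Of 43603 probes, 36108 were tested, those that exceeded background on all arrays of some group among the 7. No spot was saturated. On single arrays, 72.7 to 88.1% of probes were above background, and the number of animals limits the precision.

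The groups were compared with limma 3.58.1 (R 4.3.3), with 7 group means and 1 spread per probe over all 24 arrays, and Benjamini-Hochberg adjustment over all tested probes of a comparison. The code was tested on simulated data. A gene is represented by its brightest tested probe, which for the set had to carry the deposited symbol. Named were all genes of the set, genes of the 5 other pathway lists that passed in some comparison, and the 10 symbols most like the set. NPC1L1, SREBF1, INSIG2, FASN, KRT18, MS4A1, CD79A and CD79B were added after their values were seen. The genes and lists were chosen with earlier results of these data known. Locus numbers were named through RefSeq's gene table of the telomere-to-telomere macaque assembly, which gave 3184 symbols. The array design names another build, so no coordinates are given. For the normexp alternative, spot medians stood in for spot means. Day 12 follows the titles and the day field, where the protocol text names 21 days. Some genes of the pathway lists are not reported here and were left out of the list counts. Sequences and promoter motifs were not analysed here.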

Additional observations from a re-analysis of the deposited data

Results flagged for a closer look

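In 5 of 25 groups of 4 animals examined for the 5 genes, 1 animal lay far below the other 3, measured as its gap to the nearest animal over the range of the group. Chance alone marks about 1 in 20 groups of this size. The share was 0.892 for FDFT1 in animal 3 on day 7 after 6.7 Gy, 0.843 for HMGCS1 in animal 4 on day 7 after 7.4 Gy, and 0.834 for IDI1 in animal 2 on day 4 after 6.7 Gy. For INSIG1 it was 0.891 in animal 3 on day 4 after 7.4 Gy and 0.863 in animal 1 on day 7 after 6.7 Gy. All 5 animals were different ones.

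The change between days differed from 0 by limma's test for FDFT1 after 7.4 Gy, 0.65 higher on day 7 than on day 4 (adjusted p = 0.042, 4 animals each). Over both doses, day 12 exceeded day 4 by 0.64 for FDFT1 (adjusted p = 0.0084) and by 0.72 for HMGCS1 (adjusted p = 0.038), with 4 animals on day 12 and 8 on day 4.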

How the results depend on the processing

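Below, counts are over the 4 genes HMGCS1, FDFT1, LSS and INSIG1. On day 4 after 7.4 Gy, where 2 passed and 1 was altered, 0 passed and 0 were altered with the methods' t-test, with only the groups compared, with array position as a covariate and with epithelial scaling, and 0 were altered after quantile normalization, while 3 passed with the mean of all probes of a gene, LSS being gained. Leaving out 1 animal gave 1 to 2 passed and 0 to 2 altered. On day 4 after 6.7 Gy, where 0 passed, 1 passed after normexp correction, with only probes above background on all arrays, with intensity trend and robust moderation and with slide as a block, and 2 passed with the mean of all probes of a gene. Leaving out 1 animal gave 0 to 1 passed and 0 to 1 altered. Between day 7 and day 4 after 7.4 Gy, where 1 passed, 0 passed without the filter on dim probes, with the t-test, only the groups compared, slide as a block, the mean of probes or epithelial scaling, and 0 to 1 when 1 animal was left out. Between day 12 and day 4, where 2 passed, 1 passed without the filter, with only the groups compared and with the replicate block, 0 with epithelial scaling, and 0 to 2 when 1 animal was left out. The cause of these changes was not tested. Of 40 pairs of arrays with the same replicate number, 10 had a correlation over 0.1 (range −0.264 to 0.23). Pairs with different numbers were not examined, so these values do not decide whether the numbers pair the animals.

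Of the log2 changes of the 5 genes on days 4 and 7 against unirradiated ileum and of the single genes called in any comparison, 1 changed sign, that of LSS on day 4 after 7.4 Gy (0.05 with epithelial scaling). With epithelial scaling the median over the 4 genes on day 4 went from −0.98 to −0.54 after 7.4 Gy and from −0.76 to −0.35 after 6.7 Gy, and between day 7 and day 4 after 7.4 Gy from 0.30 to −0.04. Array position could not be fitted for days 7 and 12 against unirradiated ileum or day 4, and promoter motifs were not run.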
